A study of Mus musculus with 6 samples.

Results

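CPN-/- CRY1 cells are mouse embryonic fibroblasts into which the clock repressor CRY1 was put back after the loss of CRY1, CRY2, PER1, PER2, NR1D1 and NR1D2. Their 2 mRNA-seq libraries were compared with the 2 libraries of the CPN-/- line they were made from, which are 4 of the 6 libraries of the series, and the other 2 are of CPN-/- CRY2, made in the same way with CRY2. All 3 lines carry the knockouts of Cry1, Cry2, Per1, Per2, Nr1d1 and Nr1d2. The CRY genes were delivered by a retrovirus, driven by a viral promoter and selected with blasticidin, and each CRY line was grown from a single colony, so that the effect of CRY1 and the properties of that clone cannot be told apart. Cells were grown with serum to near confluence and every line gave 2 libraries from separate RNA preparations. The p-values cover the spread between preparations within a line, shared over the 3 lines, and not the spread between clones. The standard deviation across genes of the log2 difference between replicates was 0.4353 for CPN-/-, against 0.2323 for CPN-/- CRY1 and 0.245 for CPN-/- CRY2. A shared spread can therefore understate that of CPN-/-. The libraries held between 25957409 and 36106949 counts over 27179 genes, and expression is stated in CPM, that is, reads counted for a gene scaled by the library total and its TMM factor.

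In the mammalian clock, CLOCK and BMAL1 bind DNA at E-boxes and activate, among others, the Per and Cry genes and output factors such as Dbp, Tef and Hlf. CRY1 and CRY2, with or without PER, repress CLOCK-BMAL1, and NR1D1 and NR1D2 repress Bmal1. CRY proteins also bind other transcription factors and take part in their turnover, and the clock is known to reach into metabolism, inflammation and the cell cycle. Fibroblasts are a source of matrix, chemokines and contractile proteins.

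Of the 12 markers of fibroblasts and mesenchyme examined, 10 reached 10 CPM, while Thy1 and Dcn lay below 1 CPM in the 4 libraries. The markers of epithelium, endothelium, heart muscle and neural cells all lay below 1 CPM there. Cry1 mRNA was 125 and 115 CPM in CPN-/- and 165 and 189.6 CPM in CPN-/- CRY1, with a log2 fold change of 0.57 ± 0.11 and an adjusted p of 0.0126 from edgeR's quasi-likelihood test, and it was 51 and 48.3 CPM in CPN-/- CRY2. The Cry1 call was lost without either CPN-/- CRY1 library. The knocked-out genes still gave counts, which do not separate a knocked-out transcript from the viral one. Endogenous Per2 fell from 90.4 and 79.4 CPM to 18.8 and 15.8 CPM, Per1 from 65.4 and 63.1 CPM to 17.3 and 15.4 CPM and Cry2 from 136 and 129 CPM to 50.7 and 51.7 CPM. Nr1d1 (log2 fold change −0.34) and Nr1d2 (−0.28) did not pass the threshold, with adjusted p of 0.0567 and 0.0949.

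Of 14069 genes tested, 3423 (24.3%) had an adjusted p under 0.05 between CPN-/- CRY1 and CPN-/-. Of these, 1844 (13.1% of the tested genes) were lower in CPN-/- CRY1 and 1579 (11.2%) were higher. Chromosomes 3, 15, 16 and 19, which were shifted as a whole in this clone and are described apart at the end, held 824 of these calls among 2061 tested genes. Outside them, 2599 of 12008 tested genes were called, 1360 lower (11.3%) and 1239 higher (10.3%). These 12008 genes include the end of chromosome 11, which was shifted down as well and is also described at the end. The number of calls depended on single libraries and was 678 and 663 without CPN-/- CRY1 replicate 1 and 2, 1805 and 1802 without CPN-/- CRY2 replicate 1 and 2, and 8980 and 6360 without CPN-/- replicate 1 and 2. With each library's trend over transcript length removed, 2261 genes were lower and 3239 higher.

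The programs were read from 41 gene lists, each with some genes named by size of change among those averaging 100 or more counts and others, listed with the methods, chosen after their values were seen. The number of members called in each list is to be read against the 13.1% of all tested genes called lower and the 11.2% called higher, and a list median, given for some lists, against the median of −0.01 over all tested genes. The plot of list members ranks the lists. Chemokines, targets of the hypoxia factor HIF, clock genes, glycolysis, complement, serine metabolism and targets of the stress factor ATF4 stood at the low end. Cholesterol synthesis, interferon-stimulated genes, contractile genes and the Notch pathway stood at the high end. Cell cycle, lysosome, heat shock and TCA cycle genes had medians near 0.

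**Figure D1:**
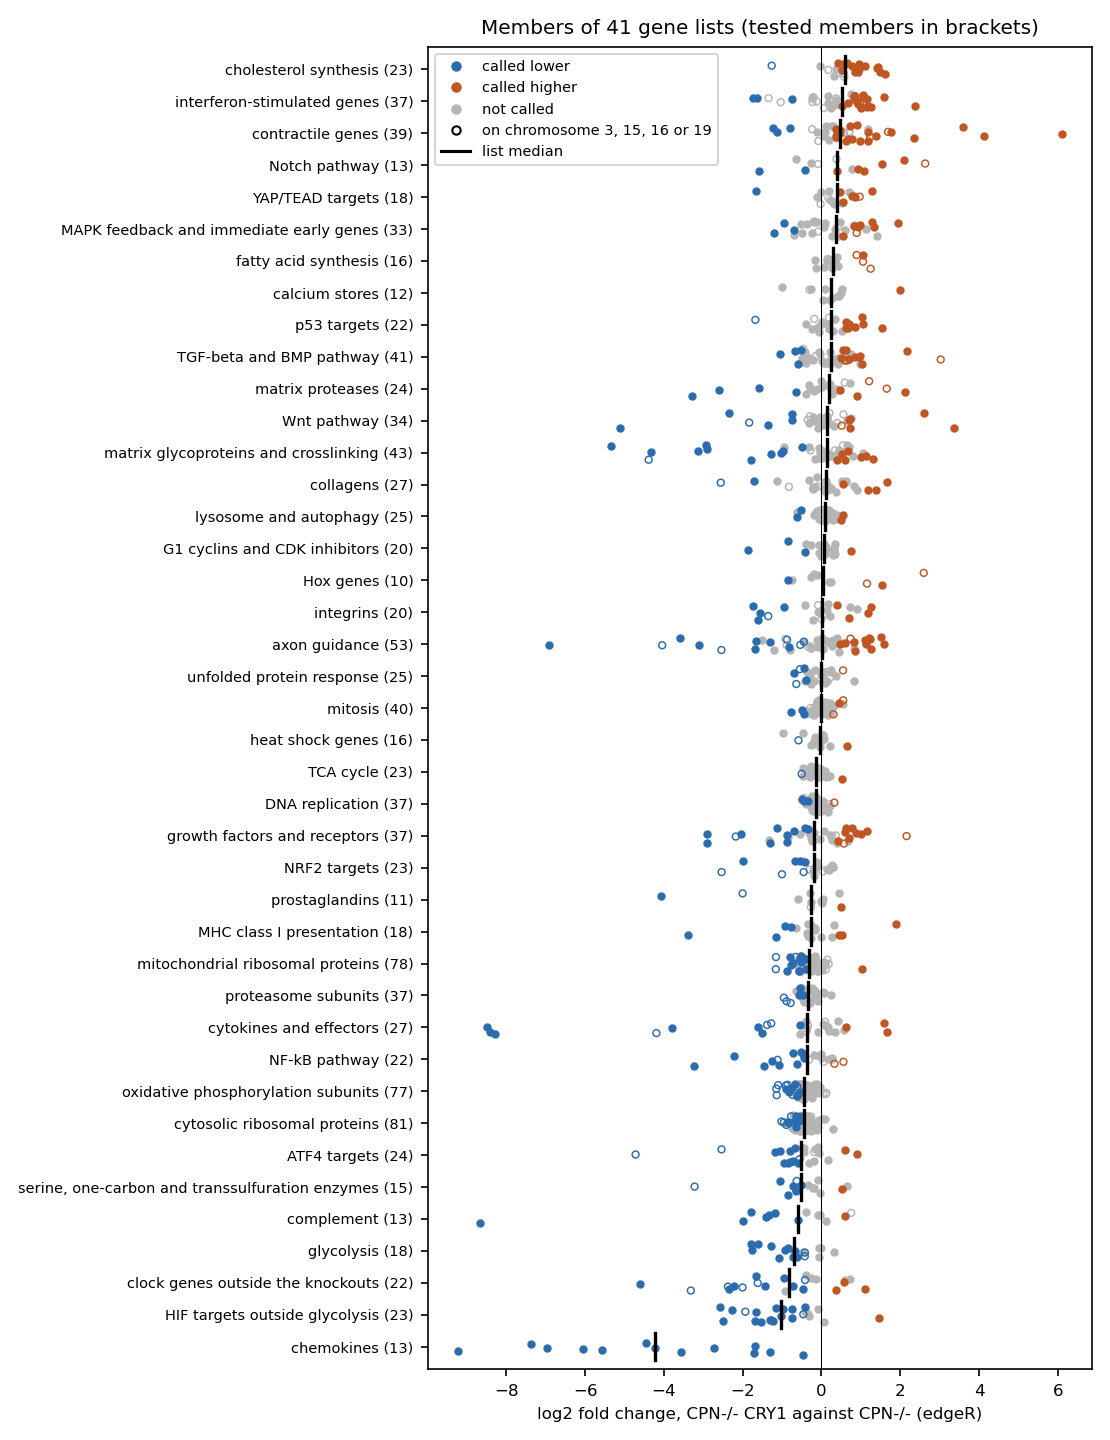
Log2 fold change of CPN-/- CRY1 against CPN-/- (x axis) for every tested member of 41 gene lists (rows, ordered by list median), 1 point a gene. Blue and orange points are genes called lower and higher at an adjusted p under 0.05, grey points are not called, open points lie on chromosome 3, 15, 16 or 19, and the black bar is the list median. The chemokine row, in which several members passed the filter only through CPN-/-, lies wholly below 0 with a median of −4.23. The cholesterol synthesis row has the highest median, 0.60.

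Of 22 tested genes of the clock outside the 6 knocked-out genes, 13 were lower and 3 higher, with a median log2 fold change of −0.83. All 5 members on chromosomes 3, 15, 16 and 19 were lower, and of the 17 elsewhere 8 were lower and 3 higher, with a median of −0.47. The output factor Hlf was 10.8 and 6.79 CPM in CPN-/- and 0.387 and 0.324 CPM in CPN-/- CRY1. Ciart, which encodes a repressor of CLOCK-BMAL1, was 34.6 and 39.3 CPM against 3.79 and 3.6 CPM, with a log2 fold change of −3.32 ± 0.13 and an adjusted p of 7.82e-05. Ciart lies on chromosome 3, and relative to that chromosome's median the change was −3.04. Neither gene overlapped between the lines. Such separation was common, with 4782 of the 14069 tested genes lower and 4635 higher without overlap. Dbp, a PAR bZIP output factor, fell from 62.6 and 70.7 CPM to 15 and 11.1 CPM, and Tef, of the same family and on chromosome 15, from 221 and 216 CPM to 76.2 and 66.2 CPM, which was −1.26 relative to its chromosome. The repressor Bhlhe40 fell from 82.6 and 80.0 CPM to 19.5 and 15.2 CPM and Per3 from 64.1 and 49 CPM to 21.1 and 14.8 CPM. All 6 of these genes kept their call when any single library was left out and in every other alternative.

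The other clock genes reported here moved less or rested on single libraries, and not every called member of the list is reported. Tsc22d3, a glucocorticoid-responsive gene with clock output features, changed by −1.43 on the log2 scale. Bhlhe41 (−0.96), Usp2 (−0.72), Wee1 (−0.47), Csnk1e (−0.42) and Rorb (−2.01) were also called lower. Bhlhe41 and Usp2 lost the call without either CPN-/- CRY1 library, Wee1 and Csnk1e without any 1 of the 4 CRY libraries, and Rorb without CPN-/- CRY1 replicate 1 alone. Arntl, which encodes BMAL1, was 44 and 40.5 CPM against 52.8 and 56.2 CPM and was called higher, as was Npas2 (1.10), a CLOCK paralog. Both calls were lost without any 1 of the 4 CRY libraries. Clock (0.60), Rora (0.71), Nfil3 (−0.39), Csnk1d (−0.26), Nampt (−0.15) and Fbxl21 (−0.93) did not pass. Compared directly, 10 of the 22 genes were below the CPN-/- CRY2 level and 1 was above it, where 16.3% of all tested genes differed between the CRY lines in either direction. Ciart was 13.5 and 14.1 CPM and Dbp 27.3 and 30.3 CPM in CPN-/- CRY2, between the other lines.

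The E-box letters CACGTG, which read the same on both strands, were searched in the 250 bases before the start of RefSeq promoters (GRCm38.p6, the build of mm10). They were found in 8.15% of the promoters of tested genes and in 6.02% of all promoters. The share was 8.36% for genes called lower and 8.48% for genes called higher, close to that of all tested genes. In the clock list, 4 of 27 promoters of 17 genes held one, those of Ciart, Bhlhe41 and both of Tef. The promoter of Ciart (chr3:95882229-95882478, minus strand) and 1 of the 2 promoters of Tef (chr15:81802423-81802672, plus strand) are shown as the 250 bases before the start, 5′ to 3′, with the E-boxes in capitals because both genes fell.
Ciart: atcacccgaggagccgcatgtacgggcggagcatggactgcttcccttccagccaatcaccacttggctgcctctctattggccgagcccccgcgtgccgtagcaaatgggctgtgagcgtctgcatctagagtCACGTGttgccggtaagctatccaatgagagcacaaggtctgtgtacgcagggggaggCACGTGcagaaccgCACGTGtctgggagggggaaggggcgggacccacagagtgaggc
Tef: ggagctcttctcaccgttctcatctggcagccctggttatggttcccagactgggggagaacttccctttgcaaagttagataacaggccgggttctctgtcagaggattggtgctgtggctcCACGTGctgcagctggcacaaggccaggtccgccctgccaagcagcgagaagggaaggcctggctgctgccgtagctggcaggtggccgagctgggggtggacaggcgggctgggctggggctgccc
Ciart held 3 E-boxes in this window and the Tef promoter shown held 1.

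Inflammatory signals secreted by fibroblasts were the lowest group. All 13 chemokines that passed the filter on low counts were called lower, out of 27 listed, and their median log2 fold change was −4.23. The filter let through several of them only by their level in CPN-/-, so the count and the median are a description. With genes filtered by a mean of at least 10 counts over the 6 libraries, the median was −3.15. The neutrophil attractant Cxcl5 (chr5:90759298-90761625) had 360 and 301 counts in the CPN-/- libraries and 1 and 0 in the CPN-/- CRY1 libraries. Against a floor of 3 counts per library it was at least 127-fold lower. Cxcl1 (chr5:90891245-90893121), a ligand of the same receptor, was 65.5 and 69.9 CPM in CPN-/- and 0.775 and 1.26 CPM in CPN-/- CRY1. Its log2 fold change was −6.07 ± 0.20 (adjusted p = 5.78e-05). Neither gene overlapped between the lines, which also held for 4782 of the 14069 tested genes in the lower direction.

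The monocyte attractant Ccl7 fell from 88.4 and 126 CPM to 8.58 and 9.44 CPM, and its neighbor Ccl2 from 194 and 273 CPM to 35 and 35.1 CPM. Cxcl10, an interferon-responsive attractant of T cells, fell from 19.9 and 23.2 CPM to 1.44 and 0.811 CPM. Cxcl12, a constitutive stromal chemokine, fell from 436 and 380.0 CPM to 121 and 132 CPM. Counts of lower chemokines were between 9 (without CPN-/- CRY1 replicate 2) and 13 (without CPN-/- replicate 2) when each library was left out. In CPN-/- CRY2 the levels were 0.698 and 0.63 CPM for Cxcl1, 13.6 and 15.9 CPM for Ccl7, 22.6 and 27.6 CPM for Ccl2 and 136 and 137 CPM for Cxcl12. In the direct edgeR comparison of the CRY lines 0 of the 13 were called, 4 had an unadjusted p under 0.05, and DESeq2 called 1.

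Cytokines and effectors were divided by role. All 5 effectors that passed the filter fell, out of 8 listed, and of the ligands 4 of 8 fell and 1 rose, while of 14 receptors 1 fell and 2 rose. Nos2, Lcn2 and Saa3 passed the filter through their level in CPN-/-, so the count of effectors is a description. The median over the 27 genes was −0.37, and −0.03 over the 20 outside chromosomes 3, 15, 16 and 19. Nos2, the inducible nitric oxide synthase, had 563 and 336 counts in CPN-/- and 1 and 2 in CPN-/- CRY1, and was at least 169.7-fold lower against the floor of 3 counts. The siderophore-binding protein Lcn2 was 6 and 7.14 CPM against 0.0277 and 0 CPM, and the acute phase gene Saa3 was 4.9 and 9.06 CPM against 0.0277 and 0 CPM. The ligand Lif fell from 8.96 and 10.6 CPM to 3.1 and 3.24 CPM. By contrast, Tslp, an alarmin, rose from 3.43 and 4.14 CPM to 11.7 and 12.1 CPM and Tlr4, the endotoxin receptor, from 14.9 and 9.71 CPM to 37.3 and 36.6 CPM. Tslp was also higher than in CPN-/- CRY2 (log2 difference 1.58, adjusted p = 9.32e-04).

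In the NF-kB pathway 11 of 22 tested genes were lower and 2 higher, with a median of −0.38. Genes listed as inhibitors, some of which are themselves targets of NF-kB, accounted for 6 of the 11. Nfkbia, encoding IkB-alpha, fell from 83.7 and 92 CPM to 37.2 and 35.9 CPM (log2 fold change −1.26 ± 0.10, adjusted p = 5.10e-04), Nfkbie from 25.5 and 26.9 CPM to 9.1 and 9.86 CPM and Bcl3 from 9.27 and 9.44 CPM to 1.19 and 0.778 CPM. The subunit gene Relb was −1.07 on the log2 scale and Rela was 0.33. The higher members, Rela and Chuk, lie on chromosome 19, and both calls were lost without either CPN-/- CRY1 library and with chromosomes centered, that of Rela also without either CPN-/- CRY2 library. Leaving out single libraries gave counts of lower genes between 5 (without CPN-/- CRY1 replicate 1) and 13 (without CPN-/- replicate 2). Set against CPN-/- CRY2 directly, 1 of the 22 was lower and 3 were higher.

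Complement followed in part. Of 13 tested genes 7 were lower and 1 higher. C3, the central component, had 2207 and 1150 counts in CPN-/- against 8 and 1 in CPN-/- CRY1, or 69.4 and 44.1 CPM against 0.221 and 0.0324 CPM. Of the C1 proteases, C1s1 fell from 151 and 134 CPM to 38.7 and 33.2 CPM and C1ra from 98 and 92.8 CPM to 38.5 and 32.7 CPM. C1s1 in CPN-/- CRY2 was 113 and 118 CPM and the direct difference was −1.69 (adjusted p = 4.28e-04). C3 in CPN-/- CRY2 was 0.0735 and 0.259 CPM, with 2 and 7 counts.

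**Figure D2:**
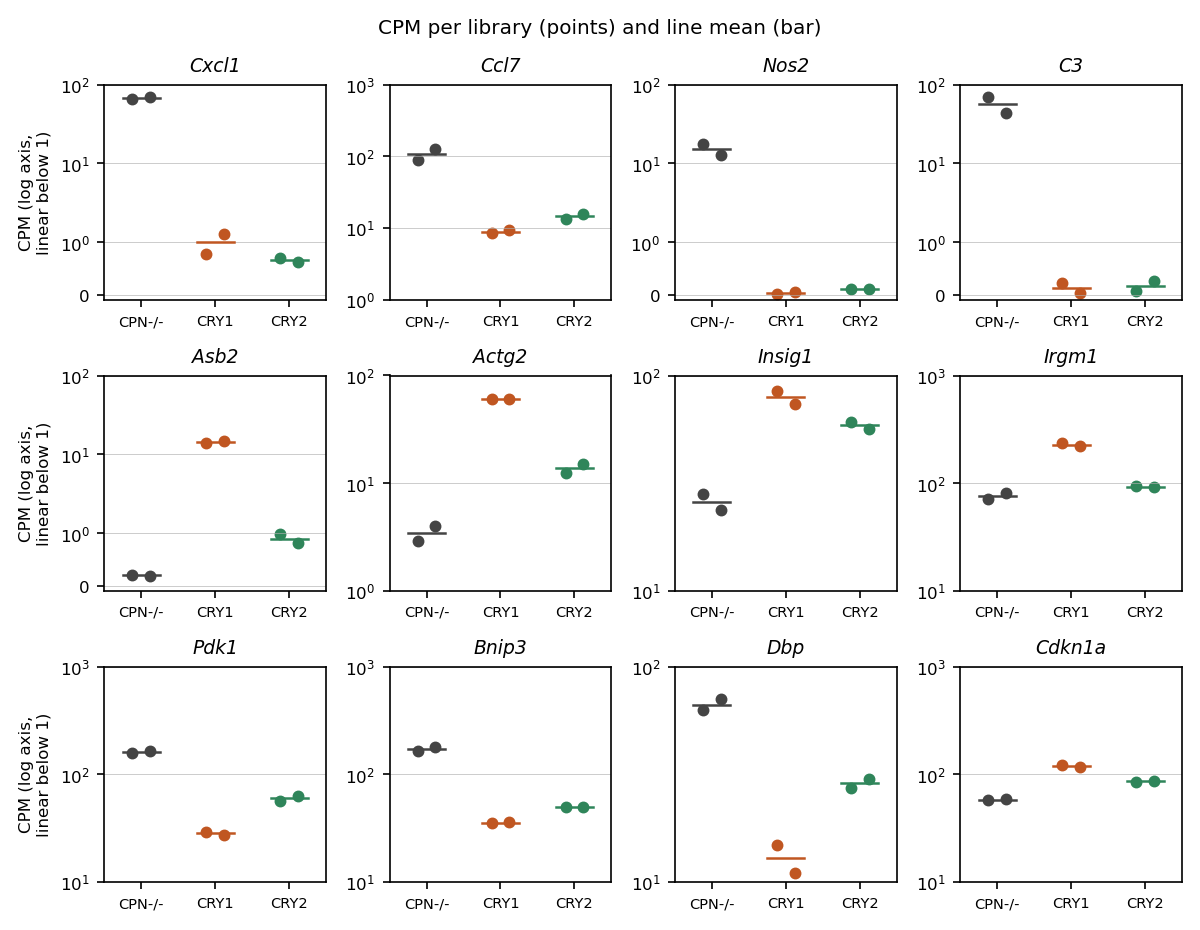
CPM in each library (points) and line mean (bar) of 12 genes in CPN-/-, CPN-/- CRY1 and CPN-/- CRY2, on a log axis that is linear below 1 CPM. Cxcl1, Ccl7, Nos2 and C3 are low in both CRY lines, whereas Asb2, Actg2 and Irgm1 are highest in CPN-/- CRY1. The libraries of CPN-/- and CPN-/- CRY1 are apart in all 12 panels. Of all 14069 tested genes, 4782 are apart in the lower and 4635 in the higher direction.

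The NF-kB site, searched on both strands by its 10-base consensus, was found in 4.47% of the promoters of tested genes and 3.9% of all promoters. The share was 5.88% for genes called lower and 4.27% for genes called higher. In the chemokine list 6 of 19 promoters held it, and in the NF-kB pathway list 11 of 28, list members that were not tested included. Cyld, Nfkb2, Rel and Traf3 of the pathway list held the site and were not called. Promoters of Cxcl1 (chr5:90890995-90891244, plus strand), Cxcl10 (chr5:92348890-92349139, minus strand) and Nfkbia (chr12:55492648-55492897, minus strand) are shown with the match in capitals because these genes were among those that fell. Cxcl5 and Nos2 had no entry in the promoter table.
Cxcl1: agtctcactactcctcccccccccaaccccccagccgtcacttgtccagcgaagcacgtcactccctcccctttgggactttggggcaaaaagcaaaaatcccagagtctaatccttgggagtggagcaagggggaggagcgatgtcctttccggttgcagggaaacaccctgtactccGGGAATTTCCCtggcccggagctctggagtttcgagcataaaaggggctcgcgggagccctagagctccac
Cxcl10: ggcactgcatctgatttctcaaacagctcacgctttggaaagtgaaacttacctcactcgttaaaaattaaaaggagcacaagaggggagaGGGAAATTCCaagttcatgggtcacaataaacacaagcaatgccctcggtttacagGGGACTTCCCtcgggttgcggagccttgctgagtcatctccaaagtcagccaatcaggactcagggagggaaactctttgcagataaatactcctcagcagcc
Nfkbia: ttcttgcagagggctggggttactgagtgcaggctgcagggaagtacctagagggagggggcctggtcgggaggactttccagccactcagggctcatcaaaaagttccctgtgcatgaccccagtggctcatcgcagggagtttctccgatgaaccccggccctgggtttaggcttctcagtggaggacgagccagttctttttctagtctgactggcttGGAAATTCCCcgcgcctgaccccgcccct
The 2 matches in Cxcl1 overlap, and Cxcl10 held 2 that do not.

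Interferon-stimulated genes moved the other way. Of 37 tested, 18 were higher and 3 lower, and the median was 0.53. Irgm1, an immunity-related GTPase, rose from 72.4 and 81.1 CPM to 237 and 221 CPM (log2 fold change 1.58 ± 0.10, adjusted p = 3.15e-04), with 94.5 and 92.6 CPM in CPN-/- CRY2. Oas2, which senses double-stranded RNA, rose from 1.98 and 0.998 CPM to 9.19 and 6.49 CPM. Usp18, an inhibitor of the interferon receptor, was 12.6 and 15.6 CPM against 39.7 and 27.5 CPM, and its call was lost without either CPN-/- library. Among the 6 signalling genes 5 rose, Stat2, Irf7, Irf9 and Usp18 among them, and Irf1, also a target of NF-kB, fell from 58.3 and 61.7 CPM to 40.1 and 31.1 CPM. The Stat2 and Irf9 calls were lost without CPN-/- CRY1 replicate 1 and that of Irf1 without replicate 2. The 2 CPN-/- CRY1 libraries differed in several of these genes, replicate 1 being the higher in Usp18, Irf7 and Oas2, and calls of higher genes were between 5 (without CPN-/- CRY1 replicate 1) and 21 (without CPN-/- replicate 2) with a library left out. Against CPN-/- CRY2, 14 of the 37 were higher in CPN-/- CRY1 and 2 were lower.

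In the presentation of antigen by MHC class I, 4 of 18 tested genes were lower and 3 higher. The transactivator Nlrc5 rose from 6.26 and 5.18 CPM to 21.4 and 21 CPM, and B2m, the invariant light chain, was 385 and 449 CPM against 579 and 554 CPM, a call lost without any 1 of the 4 CRY libraries. The heavy chain H2-Q4 fell from 28 and 29.6 CPM to 14.5 and 11.4 CPM and H2-K1 from 53.1 and 61.1 CPM to 36.6 and 30.6 CPM, the latter call being lost without CPN-/- CRY1 replicate 2. In CPN-/- CRY2 H2-K1 was 5.29 and 5.3 CPM and Nlrc5 1.65 and 1.7 CPM, so that CPN-/- CRY1 held the higher level of both (adjusted p of 2.73e-04 and 1.19e-04). Heavy chain genes share near-identical sequence and their counts can be split between copies.

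Contractile genes held some of the largest rises. Of 39 tested, 21 were higher and 3 lower, with a median of 0.47. All 3 tested actin isoforms rose. Actg2, the enteric smooth muscle actin, was 2.92 and 4.07 CPM in CPN-/- and 60.4 and 60.2 CPM in CPN-/- CRY1, with 12.6 and 15.2 CPM in CPN-/- CRY2. Acta2, the vascular smooth muscle actin and a myofibroblast marker on chromosome 19, rose from 1157 and 1426 CPM to 4230 and 4099 CPM, a log2 fold change of 1.69, or 1.38 relative to the median of its chromosome. Acta1, the skeletal muscle isoform, rose from 0.723 and 0.844 CPM to 9.68 and 9.37 CPM. Isoforms of actin share long stretches of sequence, and how their reads were divided between the isoforms is uncertain.

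Among anchors and adaptors 10 of 14 rose and 2 fell. Asb2 (chr12:103321142-103356001), an adaptor of a ubiquitin ligase that acts on filamins in muscle, rose from 0.22 and 0.192 CPM to 14.1 and 14.9 CPM, with 7 and 5 counts in the CPN-/- libraries. Its log2 fold change of 6.10 ± 0.21 (adjusted p = 5.78e-05) was the highest outside chromosomes 3, 15, 16 and 19 for genes averaging 100 or more counts. Ldb3, a Z-disc protein, rose from 3.84 and 3.72 CPM to 19.4 and 19.4 CPM, and the actin crosslinker Flna from 1892 and 1173 CPM to 3407 and 3598 CPM. The groups did not overlap in any of these genes, nor did they in 4635 of the 14069 tested genes in the higher direction. Of thin filament regulators 6 of 13 rose, among them Tagln, from 253 and 361 CPM to 1078 and 1020 CPM, and the myosin light chain gene Myl9 rose from 181 and 243 CPM to 565 and 543 CPM. Srf, the transcription factor of this program, was 90.3 and 92.4 CPM against 114 and 127 CPM. Tnnc1, Des and Csrp2 were lower. The calls of Flna and Tnnc1 were lost without either CPN-/- CRY1 library, and those of Srf, Des and Csrp2 without any 1 of the 4 CRY libraries and in the fit of only the 4 libraries of the comparison.

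The 5 markers of smooth muscle summed to 1411 and 1787 CPM in CPN-/- and to 5307 and 5119 CPM in CPN-/- CRY1, carried by Acta2 and Tagln, while its defining markers Cnn1 and Myocd lay below 1 CPM. The remaining marker, Myh11, was 0.723 and 0.576 CPM against 0.858 and 1.10 CPM and was not called. Fewer or more cells of a type and less or more RNA per cell cannot be told apart in such bulk samples. Calls of higher contractile genes were between 10 (without CPN-/- CRY1 replicate 1) and 29 (without CPN-/- replicate 1) with a library left out. Compared with CPN-/- CRY2, 13 of the 39 genes were higher and 2 lower.

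The CArG box, the site of SRF, was searched on both strands by its 10-base consensus and found in 1.19% of the promoters of tested genes and 1.47% of all promoters. The share was 2.17% for genes called higher and 0.787% for genes called lower. In the contractile list, 13 of 48 promoters held it, among them promoters of Cnn2, Fhl2 and Myl6, which were not called. Those of Asb2 (chr12:103356002-103356251, minus strand), Acta1 (chr8:123894776-123895025, minus strand) and Ldb3 (chr14:34588682-34588931, minus strand), 3 of the genes that rose most, are shown with the match in capitals. Actg2 had no entry in the promoter table.
Asb2: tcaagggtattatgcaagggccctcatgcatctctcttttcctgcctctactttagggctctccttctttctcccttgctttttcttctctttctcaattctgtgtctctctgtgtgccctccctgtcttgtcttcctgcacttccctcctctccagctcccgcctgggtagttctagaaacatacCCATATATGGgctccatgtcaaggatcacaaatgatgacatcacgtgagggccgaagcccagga
Acta1: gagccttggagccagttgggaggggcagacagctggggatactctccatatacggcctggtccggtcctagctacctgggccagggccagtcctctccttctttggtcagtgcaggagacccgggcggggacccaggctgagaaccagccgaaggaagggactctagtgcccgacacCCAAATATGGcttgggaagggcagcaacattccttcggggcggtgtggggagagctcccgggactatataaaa
Ldb3: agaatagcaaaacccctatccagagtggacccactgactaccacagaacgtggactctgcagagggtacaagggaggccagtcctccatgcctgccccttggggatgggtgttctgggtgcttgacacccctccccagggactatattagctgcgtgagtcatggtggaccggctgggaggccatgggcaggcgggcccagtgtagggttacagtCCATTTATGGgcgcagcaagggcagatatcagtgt
Asb2 and Ldb3 have 2 promoters each in the table, of which 1 is shown.

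Targets and effectors of YAP and TEAD, which respond to tension and cell spreading, had a median of 0.39, with 6 of 18 higher and 1 lower. The median was 0.66 without CPN-/- replicate 1, 0.275 without CPN-/- replicate 2 and 0.36 with the trend over transcript length removed. Ccn2, a secreted matricellular protein, rose from 159 and 216 CPM to 404 and 506 CPM and was 409 and 406 CPM in CPN-/- CRY2. Nt5e, an ectonucleotidase, was 3.87 and 2.26 CPM against 1.05 and 0.908 CPM, and its call was lost without either CPN-/- CRY1 library. Calls of higher genes in this list were between 1 (without CPN-/- CRY1 replicate 1) and 13 (without CPN-/- replicate 1) with a library left out. Of 12 genes of calcium stores, 1 was called, Ryr3, which rose from 1.63 and 0.883 CPM to 5.64 and 4.51 CPM.

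Of 27 collagens 4 were higher and 2 lower, or 22.2%, close to the 24.3% of all tested genes. The basement membrane chains Col4a1 and Col4a2, which share a promoter region, both rose, Col4a1 from 1031 and 672 CPM to 2602 and 2756 CPM and Col4a2 from 679 and 421 CPM to 1405 and 1478 CPM, the latter call being lost without either CPN-/- CRY1 library. The minor fibril-forming chain Col11a1, on chromosome 3, fell from 67.8 and 45.3 CPM to 10.9 and 8.27 CPM, and Col18a1 from 30.1 and 24.5 CPM to 7.44 and 9.24 CPM. In CPN-/- CRY2 Col11a1 was 200.2 and 185 CPM, above both other lines.

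Of 43 matrix glycoproteins, basement membrane and crosslinking genes, 11 were lower and 7 higher. Lama4, a laminin chain of vessels and muscle, fell from 55.1 and 32 CPM to 2.3 and 2.01 CPM, a log2 fold change of −4.33 ± 0.29 (adjusted p = 3.54e-04), and was 66.8 and 68.6 CPM in CPN-/- CRY2. Spp1, which encodes osteopontin, fell from 99.6 and 113 CPM to 14.1 and 13.7 CPM and was 19.4 and 16.8 CPM in CPN-/- CRY2. The crosslinking enzyme gene Lox fell from 782 and 569 CPM to 318 and 346 CPM. Fbn1, the main fibrillin, was 117 and 63.5 CPM against 195 and 202 CPM, and Efemp1 rose from 426 and 392 CPM to 649.6 and 655 CPM. The calls of Lox, Fbn1 and Efemp1 were lost without either CPN-/- CRY1 library.

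Among 24 matrix proteases and inhibitors 4 were lower and 5 higher. Mmp3 (stromelysin) was 5.85 and 6.18 CPM against 0.609 and 0.616 CPM and Adamts9 17.4 and 12.4 CPM against 5.2 and 4.7 CPM. Of the proteoglycan-cleaving enzymes on chromosome 16, Adamts1 rose from 99.4 and 82.4 CPM to 306 and 267 CPM and Adamts5 from 70.2 and 54.2 CPM to 147 and 141 CPM. Of 20 integrin subunits 5 were lower and 4 higher. The collagen receptor chain Itga1 rose from 14.1 and 8.79 CPM to 27.1 and 28.1 CPM, a call lost without either CPN-/- CRY1 library. Itga2b was 15 and 15.6 CPM against 8.47 and 7.17 CPM, called lower except without CPN-/- CRY1 replicate 2. Itga2b lies in the end of chromosome 11 that was shifted down, in a part with a median of −0.36. The higher calls among glycoproteins were between 0 (without CPN-/- CRY1 replicate 1) and 21 (without CPN-/- replicate 1) with a library left out, and the lower calls between 6 (without CPN-/- CRY1 replicate 2) and 15 (without CPN-/- replicate 2).

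In the Notch pathway 6 of 13 tested genes were higher and 2 lower, with a median of 0.40. The receptor gene Notch3, typical of mural cells, rose from 18.5 and 11.1 CPM to 67 and 59.9 CPM, against 14 and 15.6 CPM in CPN-/- CRY2. The target Hes1, on chromosome 16, rose from 3.21 and 4.38 CPM to 22.8 and 24 CPM, a log2 fold change of 2.63, or 2.36 relative to its chromosome. Notch1 (1.07) and the ligand Jag1 (0.94) were also called higher, and both lost the call without either CPN-/- CRY1 library. Calls of higher genes were between 3 (without CPN-/- CRY1 replicate 1) and 8 (without CPN-/- replicate 1) with a library left out.

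Wnt signalling genes were divided, with 6 of 34 lower and 6 higher. The non-canonical ligand Wnt5b fell from 7.26 and 7.87 CPM to 1.63 and 1.33 CPM, the secreted inhibitor Notum from 27 and 29.1 CPM to 10.4 and 11.4 CPM and Dkk2 from 9.24 and 8.14 CPM to 2.41 and 2.47 CPM. In CPN-/- CRY2 Wnt5b was 8.78 and 7.78 CPM, Notum 37.4 and 36.6 CPM and Dkk2 7.64 and 7.37 CPM. The receptor gene Fzd2 fell from 91.5 and 87.5 CPM to 54 and 51.9 CPM, and Fzd7 rose from 39 and 31.5 CPM to 58.2 and 58.5 CPM, calls that were lost without CPN-/- CRY1 replicate 2 and, for Fzd7, replicate 1. Directly compared with CPN-/- CRY2, 10 of the 34 were lower and 4 higher.

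Among 41 genes of TGF-beta and BMP signalling 12 were higher and 4 lower, and the median was 0.23. The BMP receptor gene Bmpr1b, on chromosome 3, rose from 0.943 and 0.576 CPM to 5.87 and 6.81 CPM against the shift of its chromosome, as did Smad9, a BMP effector that was not in the list, from 17 and 12.2 CPM to 51.5 and 54.3 CPM. Inhbb, an activin subunit, rose from 58.2 and 50.9 CPM to 108 and 106 CPM and was 113 and 109 CPM in CPN-/- CRY2. Id2, a target of BMP, rose from 20.1 and 27.4 CPM to 46.6 and 50.0 CPM, a call lost without CPN-/- CRY1 replicate 2. Ltbp2, which encodes a latent TGF-beta binding protein, was 220.4 and 137 CPM against 83.4 and 89.3 CPM and was called lower. This call was lost without either CPN-/- CRY1 library. Calls of higher genes ran between 2 (without CPN-/- CRY1 replicate 2) and 23 (without CPN-/- replicate 1) with a library left out.

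Growth factors and their receptors were also divided, 11 of 37 lower and 10 higher. Pdgfra, the receptor that marks fibroblasts, fell from 92.7 and 71.9 CPM to 34.6 and 31.8 CPM, and was 87.7 and 89.4 CPM in CPN-/- CRY2. Pdgfrb was 165 and 119 CPM against 265 and 259.5 CPM and was called higher, except without either CPN-/- CRY1 library. The lymphatic growth factor Vegfc fell from 23.7 and 25.9 CPM to 11.3 and 11.2 CPM and Igfbp6, a binding protein of insulin-like growth factors on chromosome 15, from 8.39 and 9.44 CPM to 2.08 and 1.85 CPM. Flt1 was 23.1 and 11.7 CPM against 38.7 and 39.4 CPM, with a call that was lost without any 1 of the 4 CRY libraries.

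Of 33 genes that feed back on the MAPK pathway or respond to it early, 9 were higher and 3 lower. The 6 called feedback inhibitors were higher, among them Dusp1, from 22.9 and 40.2 CPM to 66.8 and 87.5 CPM, whose call was lost without CPN-/- replicate 1 or either CPN-/- CRY1 library. Of the early response factors, Klf2 rose from 25 and 34.4 CPM to 71.6 and 76.7 CPM and Klf6 from 116 and 111 CPM to 209 and 238 CPM. Ier3 was 80.2 and 122 CPM against 38.6 and 49.4 CPM and was called lower, except without CPN-/- replicate 2 or either CPN-/- CRY1 library. Of 53 axon guidance genes, which also act in cell migration, 12 were lower and 12 higher. The semaphorin Sema3c fell from 212 and 158 CPM to 57.4 and 57.8 CPM, and the netrin Ntn1 from 12.3 and 10.1 CPM to 4.37 and 4.61 CPM. Sema7a rose from 7.14 and 6.14 CPM to 18.1 and 19.8 CPM.

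Beyond glycolysis, of which 12 of 18 genes were lower with a median of −0.69, the other targets of HIF were mostly lower. Of 23 tested genes in this list, which includes Hif1a, 17 were lower and 1 higher, and the median was −1.02. Pdk1, a kinase that inhibits pyruvate dehydrogenase, fell from 158 and 163 CPM to 29.4 and 27.6 CPM (log2 fold change −2.49 ± 0.11, adjusted p = 8.82e-05). The mitophagy receptor gene Bnip3 fell from 163 and 179 CPM to 35.3 and 35.9 CPM, and Ndrg1, on chromosome 15, from 133 and 144 CPM to 38 and 34.6 CPM. Vegfa fell from 83.1 and 86.3 CPM to 41 and 42.3 CPM and the collagen hydroxylase gene P4ha1 from 669 and 602 CPM to 260.1 and 267 CPM. The exception was Adm, encoding a vasodilator peptide, which rose from 31.4 and 37 CPM to 94 and 94.8 CPM and was 29.1 and 29.8 CPM in CPN-/- CRY2.

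Pdk1 was 56.8 and 63.3 CPM, Bnip3 50.2 and 49.8 CPM and Ndrg1 88.1 and 90.7 CPM in CPN-/- CRY2. Of the 23 genes in the list of HIF targets, the direct test put 10 below the CPN-/- CRY2 level and 2 above it. The list kept between 12 (without CPN-/- CRY1 replicate 1) and 20 (without CPN-/- replicate 2) lower calls with a library left out, and its median was between −1.04 and −0.99 in those fits. Hif1a itself was 370.4 and 282 CPM against 244 and 247 CPM and did not pass (adjusted p = 0.0703).

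Cholesterol synthesis and its regulators had the highest median of the lists, 0.60, with 15 of 23 genes higher and 1 lower. The 15 all lie outside chromosomes 3, 15, 16 and 19, where 18 members were tested. Insig1, the sterol sensor that is itself a target of SREBP2, rose from 28.1 and 23.8 CPM to 84.9 and 73.7 CPM (log2 fold change 1.61 ± 0.13, adjusted p = 5.62e-04). Cyp51, a sterol demethylase, rose from 62 and 62.1 CPM to 141 and 125 CPM, and the isomerase gene Idi1 from 5.09 and 5.45 CPM to 14.2 and 13.7 CPM. Pmvk, on chromosome 3, fell from 27.9 and 37.2 CPM to 14 and 13.1 CPM. Replicate 1 of CPN-/- CRY1 was the higher of its line in Insig1, Cyp51 and Idi1.

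Insig1 in CPN-/- CRY2 was 61.1 and 56.6 CPM and Cyp51 115 and 109 CPM, and the direct comparison called 1 of the 23 genes higher and 2 lower in CPN-/- CRY1. Calls of higher cholesterol genes were between 7 (without CPN-/- CRY1 replicate 1) and 20 (without CPN-/- replicate 2) with a library left out. Of 16 genes of fatty acid synthesis 4 were higher, and Scd1, Fads1 and Fads2 of these lie on chromosome 19. Fads2, a desaturase, rose from 72.8 and 58 CPM to 159.6 and 151 CPM, a log2 fold change of 1.25, or 0.94 relative to the median of its chromosome.

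Genes of amino acid metabolism that were called were mostly lower. In serine, one-carbon and transsulfuration metabolism 8 of 15 genes were lower and 1 higher, with a median of −0.53. Cth, which makes cysteine and lies on chromosome 3, fell from 11.4 and 12.7 CPM to 1.25 and 1.33 CPM and was 0.0367 and 0.0371 CPM in CPN-/- CRY2. Mthfd1l, a mitochondrial folate enzyme, fell from 179 and 156 CPM to 83.1 and 78.1 CPM, and Shmt2 from 649.9 and 719 CPM to 437 and 430.1 CPM, the latter call being lost without either CPN-/- CRY1 library. Of 24 factors and targets in the list of ATF4, the factor of the amino acid response, 12 were lower and 2 higher. The cystine carrier gene Slc7a11, on chromosome 3, fell from 51.5 and 35.2 CPM to 6.97 and 7.98 CPM, Gpt2 from 154 and 155 CPM to 71.1 and 64.5 CPM and Chac1 from 54 and 58.5 CPM to 27.5 and 26.8 CPM. Vldlr was 11 and 8.02 CPM against 0.36 and 0.357 CPM and was low in CPN-/- CRY2 too, at 0.478 and 0.296 CPM. Atf5 rose from 192 and 223 CPM to 397 and 379 CPM. Lower calls with a library left out were between 4 (without CPN-/- CRY1 replicate 2) and 17 (without CPN-/- replicate 2) for the ATF4 list and between 2 (without CPN-/- CRY1 replicate 1) and 10 (without CPN-/- replicate 2) for the serine list.

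Of 23 genes in the list of the antioxidant factor NRF2 and its targets, 7 were lower. Besides Slc7a11, which is also in the ATF4 list, Gsta4 fell from 20.7 and 27.4 CPM to 6.59 and 5.42 CPM and Gstm1, on chromosome 3, from 95.1 and 108 CPM to 53 and 48.1 CPM. Of 25 genes of the unfolded protein response 5 were lower and 1 higher, with Herpud1 at 166 and 185 CPM against 109.7 and 106 CPM. Of 16 heat shock genes 1 was lower and 1 higher, Hsf1 on chromosome 15 and Cryab. Of 23 TCA cycle genes 1 was lower and 1, Idh1, was higher. These calls of Herpud1, Hsf1, Cryab and Idh1 were lost without either CPN-/- CRY1 library.

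Genes of the respiratory chain, of both kinds of ribosome and of the proteasome had medians between −0.44 and −0.32, and the size of this shift moved with the CPN-/- library used. Of 77 subunits of oxidative phosphorylation 14 were lower, of 78 mitochondrial ribosomal proteins 15 lower and 1 higher, of 81 cytosolic ribosomal proteins 12 lower, and of 37 proteasome subunits 6 lower. Outside chromosomes 3, 15, 16 and 19 the lower members were 7 of 62 (11.3%), 11 of 64 (17.2%), 7 of 71 (9.86%) and 3 of 33 (9.09%), near the 11.3% of all tested genes there except for the mitochondrial ribosome. Without CPN-/- replicate 1 the medians were between −0.69 and −0.50, and 70, 66, 77 and 31 members were lower. Without CPN-/- replicate 2 the medians were between −0.12 and −0.10, and 24, 23, 24 and 13 were lower. Without CPN-/- CRY1 replicate 1 or 2, at most 1 member of each list was lower. With the trend over transcript length removed the medians were between −0.17 and −0.10. Such genes are known for short transcripts, and the log2 difference between the 2 CPN-/- libraries correlated with transcript length across 12478 genes at a Spearman rho of −0.66, with 0.20 for CPN-/- CRY1 and −0.27 for CPN-/- CRY2, as a description across genes, which are not independent replicates. Among subunits with the lowest values, Ndufa6, Ndufb9 and Cox6c lie on chromosome 15.

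**Figure D3:**
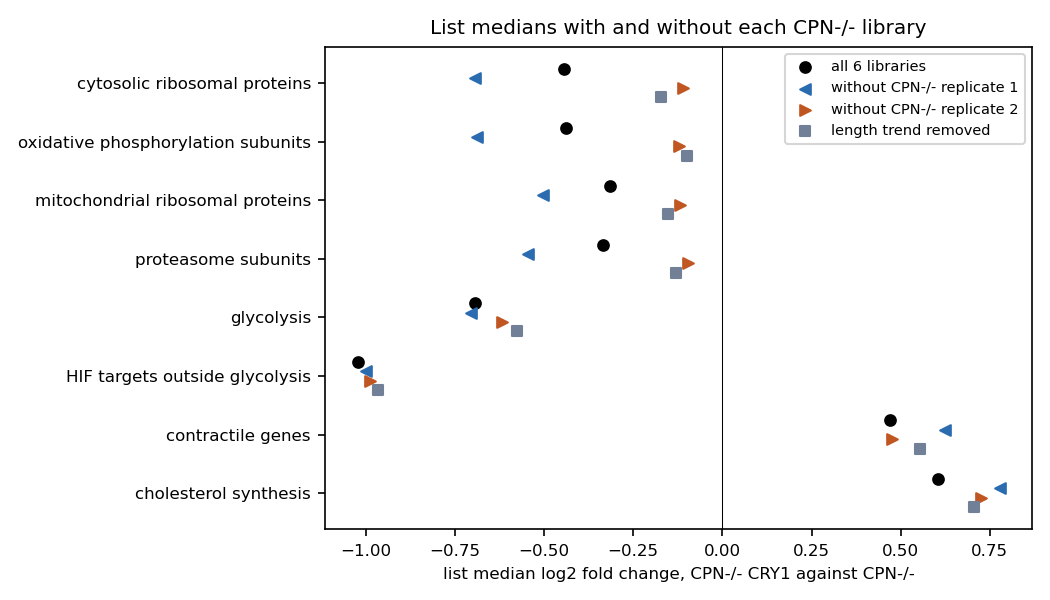
Median log2 fold change of CPN-/- CRY1 against CPN-/- (x axis) of 8 gene lists (rows) with all 6 libraries, without each CPN-/- library, and with the trend over transcript length removed. The 4 upper lists, ribosome, respiratory chain and proteasome, move toward 0 without CPN-/- replicate 2, whereas the HIF targets stay between −1.02 and −0.96.

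Cell cycle genes were near the background or below it. Of 37 DNA replication genes 3 were lower and 1 higher, of 40 mitosis genes 3 lower and 3 higher, and of 20 G1 cyclins and inhibitors 3 lower and 1 higher. Their medians were −0.15, −0.02 and 0.07. Of 22 genes in the list of p53 targets, which includes the p53 gene Trp53, 8 were higher and 1 lower, with a median of 0.24. Cdkn1a, the CDK inhibitor p21, rose from 58.2 and 58.7 CPM to 123 and 117 CPM (log2 fold change 1.04 ± 0.09, adjusted p = 6.78e-04), with 85.6 and 87.1 CPM in CPN-/- CRY2. Ccng1 rose from 129.6 and 112 CPM to 216 and 218 CPM. The death receptor gene Fas, on chromosome 19, fell from 20.1 and 25.9 CPM to 7.36 and 6.97 CPM. Calls of higher p53 targets were between 2 (without CPN-/- CRY1 replicate 1) and 12 (without CPN-/- replicate 2) with a library left out.

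Of 25 lysosome and autophagy genes 2 were lower and 2 higher, and of 11 prostaglandin genes 2 lower and 1 higher. The share of calls in both lists was near the background of 24.3% or below it. The Hox genes, which keep the positional identity of fibroblasts, had 10 members tested of 39, with 3 higher and 1 lower, and 1 each way among the 8 outside chromosome 15. Hoxc13 rose from 1.6 and 1.69 CPM to 10.6 and 9.28 CPM and was 0.625 and 0.704 CPM in CPN-/- CRY2. It lies on chromosome 15, whose median was below 0.

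Some of the largest changes outside chromosomes 3, 15, 16 and 19 lay outside the lists. The imprinted growth-restraining RNA H19 (chr7:142575530-142578146) had 442 and 397 counts in CPN-/- and 3 and 4 in CPN-/- CRY1. In CPN-/- CRY2 it had 5 and 8 counts. Slc7a2, a carrier of arginine, fell from 21.2 and 14.9 CPM to 0.802 and 0.649 CPM, and the neurturin receptor gene Gfra2 from 10.2 and 7.79 CPM to 0.387 and 0.195 CPM. Pde1a, a calmodulin-dependent phosphodiesterase, fell from 8.61 and 6.03 CPM to 0.194 and 0.324 CPM. Gm19410 changed by −5.24 on the log2 scale.

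Among the genes that rose, the natriuretic peptide gene Nppb went from 0.912 and 1.54 CPM to 9.74 and 10.9 CPM and the transcription factor gene Ebf1 from 1.7 and 0.998 CPM to 9.35 and 9.37 CPM. Daam2, a formin of the Wnt and actin pathways, went from 5.82 and 3.22 CPM to 33.6 and 33.9 CPM. Zdhhc14, Rap1gap2, Renbp and Mdga1 had log2 fold changes of 3.60, 3.42, 3.36 and 3.03. All 7 were also higher than in CPN-/- CRY2 at an adjusted p between 2.73e-04 and 0.00176.

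Chromosomes 3, 15, 16 and 19 moved as wholes. The median log2 fold change was −0.28 on chromosome 3 (638 genes tested, 214 lower and 27 higher), −0.36 on chromosome 15 (530, 226 and 17), 0.27 on chromosome 16 (420, 21 and 127) and 0.31 on chromosome 19 (473, 23 and 169). The other 16 chromosomes had medians between −0.13 (chromosome 6) and 0.11 (chromosome 14). CPN-/- CRY2 against CPN-/- gave 0.11, 0.05, −0.09 and −0.17 on the 4 chromosomes. Since these chromosomes were chosen for their shift, the values are a description without a test, and every alternative other than the centering by chromosome gave the same sign on each of the 4.

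**Figure D4:**
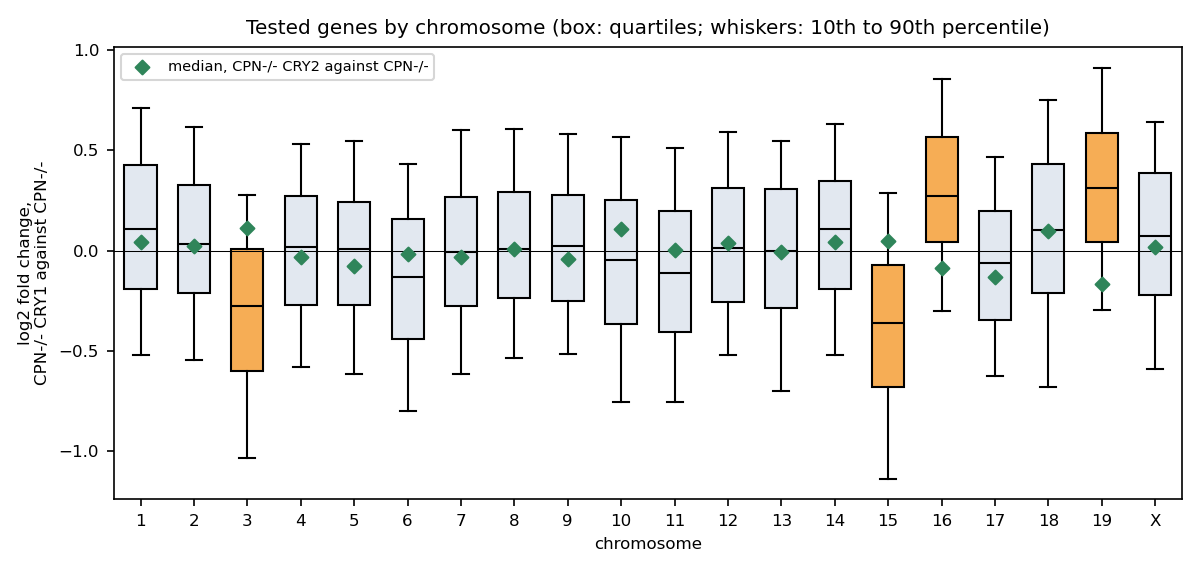
Log2 fold change of CPN-/- CRY1 against CPN-/- (y axis) of the tested genes of each chromosome, as boxes from the lower to the upper quartile with the median as a line and whiskers from the 10th to the 90th percentile. Green diamonds are the medians of CPN-/- CRY2 against CPN-/-, and the medians of the orange boxes of chromosomes 3, 15, 16 and 19, at −0.28, −0.36, 0.27 and 0.31, lie outside the range of the other medians.

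The shift ran along the length of each of the 4 chromosomes. When the tested genes of a chromosome were divided by position into 10 parts of nearly equal gene number, every part had the sign of its chromosome, between −0.42 and −0.10 on chromosome 3, between −0.65 and −0.14 on chromosome 15, between 0.17 and 0.39 on chromosome 16 and between 0.23 and 0.45 on chromosome 19. Chromosome 11 was examined after its values were seen. Its first 7 parts had medians between −0.12 and 0.07 and its last 3, from about chr11:98836785 to chr11:121717389, had medians of −0.36, −0.32 and −0.40, with 46, 36 and 39 genes lower and 2, 8 and 2 higher. These 3 parts in CPN-/- CRY2 had medians of 0.04, 0.08 and 0.01. Genes named earlier that lie there, Itga2b among them, are given without correction for this shift.

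**Figure D5:**
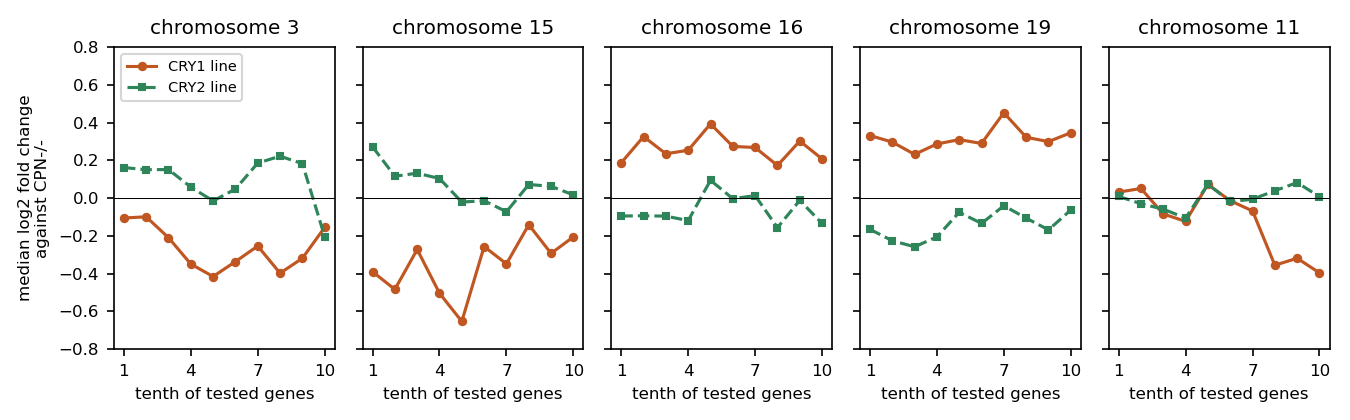
Median log2 fold change against CPN-/- (y axis) of the tested genes of chromosomes 3, 15, 16, 19 and 11, divided into 10 parts by position (x axis). The CPN-/- CRY1 line (orange, solid) is below 0 along chromosomes 3 and 15, above 0 along chromosomes 16 and 19, and drops to between −0.40 and −0.32 in the last 3 parts of chromosome 11, whereas CPN-/- CRY2 (green, dashed) stays between −0.26 and 0.27.

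With each chromosome centered on its median in every library, an alternative added after seeing the data, 465 genes on the 4 chromosomes were called in place of 824, and 2346 outside them in place of 2599. The genes that stood out beyond the shift included Enpp2 on chromosome 15, which encodes autotaxin and fell from 10.8 and 10.2 CPM to 0.221 and 0.0973 CPM, and the glutamate carrier gene Slc1a3, from 88.8 and 68.5 CPM to 6.61 and 5.77 CPM with 198 and 189 CPM in CPN-/- CRY2. On chromosome 3 the fatty acid binding protein gene Fabp4 fell from 8.71 and 12.1 CPM to 0.609 and 0.746 CPM, the only 1 of 4 adipocyte markers to reach 1 CPM, and S100a16 from 10.2 and 16.6 CPM to 1.22 and 1.14 CPM. On chromosome 16 Fam162a, a HIF target, fell from 218 and 321 CPM to 59 and 61 CPM against the direction of its chromosome. On chromosome 19 Plce1 rose from 7.77 and 4.11 CPM to 27.9 and 24.1 CPM. Centering ended the call of 20 of the 195 genes that the rule on named genes selected, among them Hsf1 and Csnk1e on chromosome 15 and Myof and Kif11 on chromosome 19.

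Compared directly, CPN-/- CRY1 and CPN-/- CRY2 differed in 2292 genes, 1206 lower and 1086 higher in CPN-/- CRY1. On chromosomes 3, 15, 16 and 19, 218, 217, 15 and 7 genes were lower and 19, 17, 118 and 189 were higher. The median log2 differences between the CRY lines there were −0.40, −0.43, 0.35 and 0.46. With each chromosome centered on its median, 1477 genes differed. The shares that follow include the genes on these 4 chromosomes, without centering. Of the 3423 genes called against CPN-/-, 1509 (44.1%) also differed from CPN-/- CRY2 in the same direction. The share was 50.0% of the called contractile genes, 61.9% of the called interferon-stimulated genes, 68.8% of the called clock genes and 12.5% of the called cholesterol genes. It was 23.1% in the NF-kB pathway and 16.7% in glycolysis. A gene without this call is not shown to be at the same level in both CRY lines.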

How the data were processed

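Polyadenylated RNA of 3 mouse embryonic fibroblast lines was sequenced as stranded paired-end mRNA libraries, 2 libraries a line. Per the study's methods and the submitters' processing notes, reads were aligned to mm10 with STAR and counted per gene with featureCounts. The authors deposited raw counts per Entrez gene ID for each library. The annotation, the strand setting and the treatment of multi-mapping reads are not given in the sources used here, so that reads of a gene and its antisense partner cannot be told apart, and members of gene families with near-identical copies (actins, Irgm, H2, Oas, Cxcl, Saa and ribosomal proteins) are uncertain.

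Gene IDs were matched to symbols and positions in RefSeq. The 726 tested genes without an entry were kept in the fit. Genes passing edgeR's filterByExpr (minimum count 10, minimum total count 15) were fitted with edgeR 4.0.16 in R 4.3.3 by the robust quasi-likelihood method, with TMM factors, the line as the only term and all 6 libraries, so that the spread is shared over the lines. Tests were two-sided, with Benjamini-Hochberg adjustment over 14069 genes and a threshold of 0.05. Errors of log2 fold changes are standard errors. A gene with 3 or fewer counts in every library of a line was given a bound against a floor of 3 counts per library. On simulated counts for this comparison over 14069 genes, the procedure recovered 94.5% of 200 genes changed by 1.5 on the log2 scale and called 12 others. The simulated libraries had no trend over transcript length and no shifted chromosomes. These rates therefore do not measure the error of the calls in the real libraries.

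The lines, lists and chromosomes were chosen with earlier results of these data known. Up to 4 genes of each list (all of the clock list), 10 per direction outside chromosomes 3, 15, 16 and 19 and 2 per direction on each of these were named, by largest fold among called genes that averaged 100 counts or more and moved one way in all 4 library pairs, with the cell type markers and the 6 targeted genes. Added after their values were seen were Adm, Atf5, B2m, Ccl2, Chuk, Csrp2, Cxcl12, Cyp51, Efemp1, Fbn1, Flna, Fzd7, Hif1a, Irf1, Irf7, Irf9, Lcn2, Lox, Mmp3, Myl9, Nt5e, P4ha1, Pmvk, Rela, Relb, Saa3, Shmt2, Srf, Stat2, Tnnc1 and Vegfa. Some genes that this rule selects are not reported here. Promoters came from RefSeq for GRCm38.p6. Alternatives were DESeq2 1.42.0, other scalings and filters, thresholds, a replicate block and each library left out. Further alternatives were removal of a loess trend over transcript length (span 0.5) and, added after seeing the data, centering of each chromosome. Same-numbered libraries of different lines had correlations of deviations between −0.08 and 0.14.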

Additional observations from a re-analysis of the deposited data

How the results depend on the processing

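The number of genes called moved with the libraries used far more than with the scaling. Against 3423 genes called between CPN-/- CRY1 and CPN-/-, 2599 of them outside and 824 on chromosomes 3, 15, 16 and 19, and 2292 called between the CRY lines, a fit of only the 4 libraries of each comparison called 1798, 1348, 450 and 6838. With the length trend removed the counts were 5500, 4333, 1167 and 4254. At an adjusted p under 0.01 they were 1184, 882, 302 and 854, and with an absolute log2 fold change of at least 1 they were 1089, 868, 221 and 828. Leaving out 1 library gave between 663 and 8980, between 503 and 7600, between 151 and 1380 and between 475 and 6897, with the lone library of a line assumed to vary like the others. Centering each chromosome on its median, added after seeing the data, gave 465 on the 4 chromosomes and 1477 between the CRY lines. DESeq2 called 3819 genes in the main comparison. The cause of these moves beyond the change in libraries or thresholds was not tested.

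The replicate numbers did not pair the libraries. The fit with the replicate block called 3458, 2661, 797 and 2188 genes. Of the 195 genes selected by the rule, 187 were called and 106 of these kept the call in every alternative, while 73 and 76 lost their call without CPN-/- CRY1 replicate 1 and 2, and 2 and 3 without CPN-/- replicate 1 and 2.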
